A study of Mus musculus with 6 samples.

Results

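Translation initiation and elongation factors are described here in the livers of Nogo knockout mice and wild-type littermates. The members are all genes whose names start with Eif1 to Eif6, Eef1 or Eef2, kinases and binding proteins that carry these names included. Of 77 such names, 8 were pseudogene names and were dropped, which gave 69 members among the 54232 genes of the table. Of the members, 68 are protein coding, and Eif2c5, which carries the name of an initiation factor, is annotated as a long noncoding RNA. A filter on low counts kept 64 members for testing. The other 5 were Eef1a2, Eef1akmt3, Eif4e1b, Eif5a2 and Eif2c5.

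RNA was sequenced from the livers of 3 knockout mice, with the genotype Nogo-/-, and of 3 wild-type littermates. All 6 mice were 8 weeks old and ate normal chow. The labels number the libraries, which are called wild type 2, 4 and 11 and knockout 1, 2 and 4. The study's title places the question in insulin signalling, and no insulin or diet treatment was applied to these groups. Rtn4 encodes Nogo, one of the reticulons, which bend the membranes of the endoplasmic reticulum. The strain, the sex of the mice, the part of Rtn4 that was removed and the tissues in which it was removed were not given in the sources used here.

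As background, initiation starts when eIF2, a GTPase, carries the initiator tRNA to the small ribosomal subunit, which eIF1, eIF1A, eIF3 and eIF5 prepare for scanning. The cap-binding complex eIF4F brings the mRNA, and eIF5B joins the large subunit, which eIF6 holds apart until then. During elongation eEF1A delivers aminoacyl-tRNAs, the eEF1B complex recharges eEF1A with GTP, and eEF2 moves the ribosome along the mRNA. In liver, which secretes large amounts of protein, insulin and nutrients act on this machinery through the eIF4E-binding proteins and the kinase of eEF2, and stress acts on it through kinases of the alpha subunit of eIF2.

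The libraries held 17568223 to 20902369 counts, and 18653 to 19377 genes had at least 1 count. Rtn4 fell from 40.5, 52.8 and 56.0 CPM in wild type to 4.63, 8.22 and 4.69 CPM in knockout, where CPM are counts scaled to one library size with TMM factors. Mitochondrially encoded genes took 6.17% to 6.90% of counts in wild type and 28.6%, 19.7% and 11.8% in knockout 1, 2 and 4. The nuclear RNAs Malat1 and Neat1 took 0.0131% to 0.0209% of counts in wild type and 0.0239% to 0.0272% in knockout. The genotypes do not overlap in either share, so these shares and the genotype cannot be told apart. The part of the mitochondrial share in the results below was not tested beyond the fits named there, and that of the nuclear RNAs was not tested. Hepatocyte markers summed to 89674 to 106924 CPM in wild type and 77462 to 112893 CPM in knockout, with 0 of 8 higher and 1 of 8 lower. Markers of T and NK cells summed to 3.89 to 4.97 against 9.93 to 19.1 CPM (4 of 7 tested rose). Those of B cells summed to 8.41 to 11.8 against 17.4 to 29.4 CPM (4 of 6 rose). Neutrophil markers summed to 1.47 to 2.14 against 4.33 to 10.7 CPM (2 of 2 tested rose). Of the 8 neutrophil markers listed, only S100a8 and S100a9 were high enough to test, and the sum lay mostly in them. Sinusoidal endothelial markers summed to 157 to 201 against 88.7 to 137 CPM, and 5 of 7 fell. No marker of these lists was at 0 in all libraries, and the part of these cells in the results was not tested. In whole liver, fewer cells of a type and less RNA per cell cannot be told apart.

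Promoter windows of 6 members are shown, since 4 of these genes fell (Eef1a1, Eef2, Eif4g1 and Eif2s3x) and 2 rose (Eif5b and Eif2b1), so that a reader can set the start sites of both directions side by side. Each runs from 130 bases before to 20 bases after the start in RefSeq (GRCm38.p6), 5′ to 3′ on the gene's strand. Capitals mark matches, on either strand, to 5 motifs: the E-box CACGTG, the GC box GGGCGG, which reads CCGCCC on the other strand, the CCAAT box (CCAAT), the ETS core CCGGAAG and the TATA box TATAAA. None of these motifs contains another. Positions are chr9:78481705-78481854 (minus) for Eef1a1, chr10:81176501-81176650 (plus) for Eef2, chr16:20672597-20672746 (plus) for Eif4g1, chrX:94212632-94212781 (minus) for Eif2s3x, chr1:37997880-37998029 (plus) for Eif5b and chr5:124579112-124579261 (minus) for Eif2b1.
Eef1a1: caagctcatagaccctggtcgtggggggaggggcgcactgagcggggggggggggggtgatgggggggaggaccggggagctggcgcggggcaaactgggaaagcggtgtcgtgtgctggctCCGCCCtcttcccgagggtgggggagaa
Eef2: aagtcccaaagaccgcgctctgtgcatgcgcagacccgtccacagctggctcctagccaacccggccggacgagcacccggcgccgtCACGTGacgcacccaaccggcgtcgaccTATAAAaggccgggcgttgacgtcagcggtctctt
Eif4g1: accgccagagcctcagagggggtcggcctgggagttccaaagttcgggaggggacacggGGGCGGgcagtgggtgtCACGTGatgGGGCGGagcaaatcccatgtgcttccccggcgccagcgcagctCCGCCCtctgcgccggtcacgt
Eif2s3x: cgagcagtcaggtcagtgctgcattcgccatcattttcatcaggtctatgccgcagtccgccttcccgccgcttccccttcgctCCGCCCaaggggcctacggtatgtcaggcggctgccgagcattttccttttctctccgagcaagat
Eif5b: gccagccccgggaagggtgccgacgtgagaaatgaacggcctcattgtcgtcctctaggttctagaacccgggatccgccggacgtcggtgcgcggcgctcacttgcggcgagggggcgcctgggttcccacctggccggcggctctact
Eif2b1: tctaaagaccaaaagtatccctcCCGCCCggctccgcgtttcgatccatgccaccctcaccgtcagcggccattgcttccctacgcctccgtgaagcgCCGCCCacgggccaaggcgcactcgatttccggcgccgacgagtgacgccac

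Eef2 has an E-box followed by a TATA box. Eif4g1 has an E-box between GC boxes. The windows of Eef1a1, Eif2s3x and Eif2b1 hold only GC boxes, and that of Eif5b holds none of the 5 motifs. RefSeq windows of 300 bases (250 before the start and 50 after it) were found for 53 members, 11 of them called below. The GC box was in 39 of the 53 (73.6%) and in 38.2% of the windows of all 27025 genes. The ETS core was in 17 (32.1%, against 9.9% of all genes) and the E-box in 13 (24.5%, against 8.1%). The CCAAT box was in 17 (32.1%, against 41.1%) and the TATA box in 5 (9.4%, against 15.7%). Among called members, the E-box was in 2 of 8 that fell and 0 of 3 that rose, beside 10 of 39 that did not pass the test. The ETS core and the CCAAT box were each in 1 of 8 and 0 of 3, beside 15 of 39. The GC box was in 6 of 8 and 1 of 3, beside 30 of 39, and the TATA box in 2 of 8 and 0 of 3, beside 3 of 39. These matches are a description of letters and not of binding.

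In knockout liver, 17 of the 64 tested members changed: 13 fell, led by Eif6, Eef2 and Eef1a1, and 4 rose, led by Eif5b. A gene was called at an adjusted p under 0.05 in edgeR's quasi-likelihood test over all 13304 tested genes, and "rose" and "fell" are used for called genes only. The share of members called was 26.6%, beside 17.0% of all tested genes. All tested genes split evenly, with 8.76% higher and 8.29% lower. The median log2 fold change of the members was -0.30, beside 0.01 for all tested genes, and 45 members lay below 0 and 19 above it. Groups did not overlap for 28 members, 7 with knockout higher and 21 with knockout lower, and for 38.9% of all tested genes (19.7% higher and 19.2% lower). All 17 called members were among these 28.

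**Figure D1:**
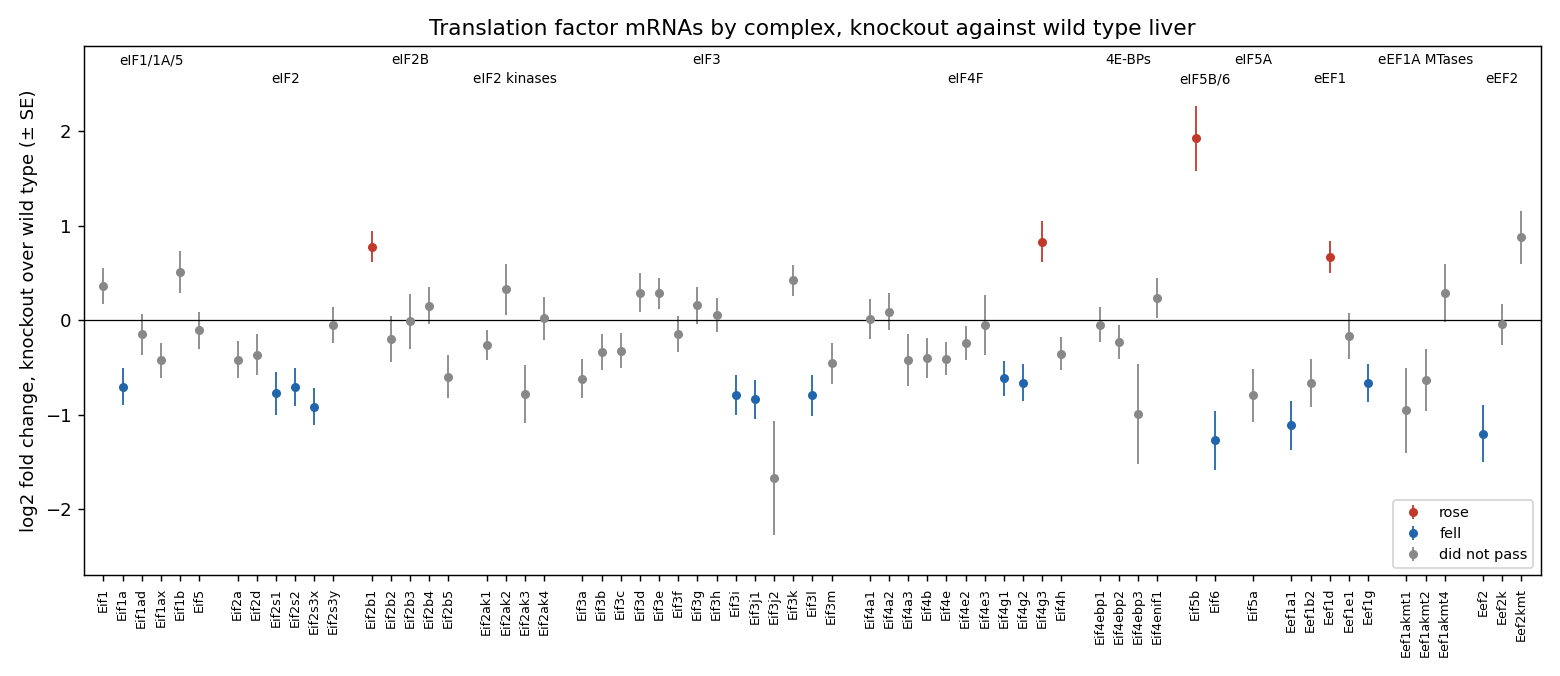
Log2 fold change, knockout over wild type, of each of the 64 tested members, grouped by complex along the x axis. Points are edgeR estimates, bars are ± SE, and colour gives the 4 members that rose, the 13 that fell and those that did not pass. The calls that fell are spread over initiation and elongation complexes, and Eif5b stands highest, at 1.92.

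The 3 knockout livers did not move by the same amount. The median deviation of the members from the wild-type mean, on the log2 scale, was -0.45 in knockout 1, -0.38 in knockout 2 and -0.11 in knockout 4, the order of their mitochondrial shares. Knockout 4 lay nearest to wild type among the knockout libraries for 12 of the 13 members that fell, Eif2s3x being the exception, and for 3 of the 4 that rose, Eef1d being the exception. With knockout 4 alone against wild type, or with the mitochondrial share as a covariate, 0 members passed edgeR's test, beside 0.178% and 0% of all tested genes. With 1 knockout library that fit takes its spread from the wild-type libraries and assumes that knockout 4 varies like them, so it can call few genes of any kind and its lack of calls says nothing about the members. At an unadjusted p under 0.05 there were 17 of 64 members with knockout 4 alone, beside 2649 of 14074 tested genes, and 4 with the covariate, beside 1146 of 13304. Without knockout 4, 33 members were called (5 higher and 28 lower), beside 29.4% of all tested genes. In knockout 4 alone the 13 members that fell had estimates from -1.10 (Eif2s3x) to -0.31 (Eif2s1), and the 4 that rose from 0.37 (Eif4g3) to 0.91 (Eif5b).

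**Figure D2:**
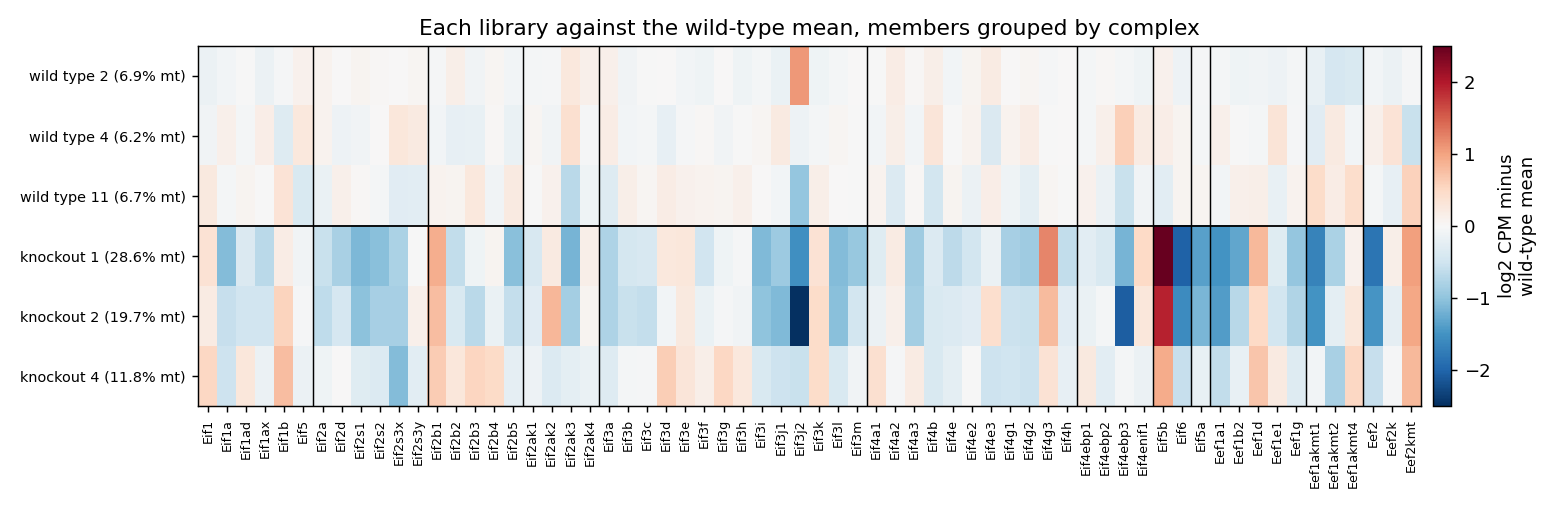
Log2 CPM minus the wild-type mean for each tested member (columns, grouped by complex) in each library (rows, with the percent of counts on mitochondrially encoded genes, mt). Red is above and blue below the wild-type mean. Rows of knockout 1 and 2 are the darkest, while Eif2s3x is as blue in knockout 4 as in the others.

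The elongation factor that delivers aminoacyl-tRNAs held the highest level. Eef1a1, at chr9:78478449-78489151 (minus strand) (mm10), was at 3825, 4320.1 and 3787 CPM in wild type and 1417, 1498 and 2599 CPM in knockout. Knockout 1 and 2 were lowest, and no knockout library reached a wild-type one. It fell 2.16-fold (log2 fold change -1.11 ± 0.26 SE, edgeR adjusted p = 0.0193). Per kilobase of exon, its level was 1595 CPM in wild type and 737 in knockout, above all other members. Of its 50-base words, 40.4% also occur in transcripts of other genes, so its counts depend on how such reads were treated, which is not given in the sources used here. Eef1a2, its muscle and nerve counterpart, had at most 0.0662 CPM in any library, and skeletal muscle markers summed to at most 0.279 CPM in wild type and 1.72 CPM in knockout.

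The subunits of eEF1B, the complex that exchanges GDP for GTP on eEF1A, split. Eef1g, the gamma subunit, was at 154, 156 and 169 CPM in wild type and 81.2, 94.2 and 127 CPM in knockout. It fell 1.58-fold (-0.66 ± 0.20, edgeR adjusted p = 0.0442), and it shares 44.2% of its words with other genes. Eef1d, the delta subunit, was at 76.4, 79.1 and 89.8 CPM in wild type and 144, 115 and 132 CPM in knockout. It rose 1.59-fold (0.67 ± 0.17, adjusted p = 0.0269), and knockout 4 was not its nearest library to wild type. The ratio of Eef1d to Eef1g counts, chosen after the values were seen, was 0.497, 0.507 and 0.533 in wild type, against 1.77, 1.22 and 1.04 in knockout. Both genes had groups that lay apart, in opposite directions, so that ratio had to separate the genotypes. Eef1b2, another eEF1B subunit, had -0.67 ± 0.26 (edgeR adjusted p = 0.0957). Eef1e1, which belongs to the aminoacyl-tRNA synthetase complex, had -0.17 ± 0.24 (edgeR adjusted p = 0.653). So 2 of 5 tested eEF1 genes fell and 1 rose, beside 8.29% and 8.76% of all tested genes.

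Eef2, which translocates the ribosome, lies at chr10:81176631-81182498 (plus strand). Its levels were 1780.4, 2035 and 1817 CPM in wild type and 528, 672 and 1249.7 CPM in knockout. The groups were well apart in knockout 1 and 2, and knockout 4 was about midway. It fell 2.30-fold (-1.20 ± 0.30, edgeR adjusted p = 0.0235). Eef2k, the kinase that inhibits eEF2, was at 9.31, 13.0 and 8.92 CPM in wild type and 11.4, 8.70 and 10.1 CPM in knockout, with overlapping groups (-0.05 ± 0.22, adjusted p = 0.900). Eef2kmt, which methylates eEF2, was at 5.37, 3.73 and 8.31 CPM against 11.4, 10.9 and 9.81 CPM (0.88 ± 0.28, adjusted p = 0.0545), short of the threshold although the groups did not overlap. It passed in DESeq2 and limma-voom. Of the eEF1A methyltransferases, 3 were tested and 0 passed in edgeR, DESeq2 or limma-voom, where 17.0%, 18.4% and 18.1% of all tested genes passed. At an unadjusted p under 0.05 in edgeR there were also 0 of 3, beside 4526 of 13304 tested genes. Eef1akmt4, narrowly the highest by mean CPM over all 6 libraries but the lowest of the 3 in wild type, had 0.29 ± 0.31 (adjusted p = 0.545). Eef1akmt3 had at most 0.181 CPM.

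Eef1a1 and Eef2 made up 51.9%, 54.1% and 52.9% of all counts on members in wild type and 31.7%, 33.5% and 43.6% in knockout. All members together summed to 10804, 11757 and 10600 CPM in wild type and 6144, 6473 and 8826 CPM in knockout. Without Eef1a1 and Eef2 the sums were 5198, 5402 and 4997 CPM in wild type and 4199, 4302 and 4978 CPM in knockout. The lower total thus lay mostly in these 2 elongation factors. Without them knockout 4, at 4978 CPM, came close to wild type 11, at 4997 CPM. Members took 1.27%, 1.34% and 1.17% of the counts outside mitochondrial genes in wild type and 0.718%, 0.847% and 0.942% in knockout. Cytosolic ribosomal protein genes, a list chosen after earlier results were known, had a median of 0.34 in the same fit. Of 88 tested, 29 were higher and 1 lower, beside 8.76% and 8.29% of all tested genes.

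**Figure D3:**
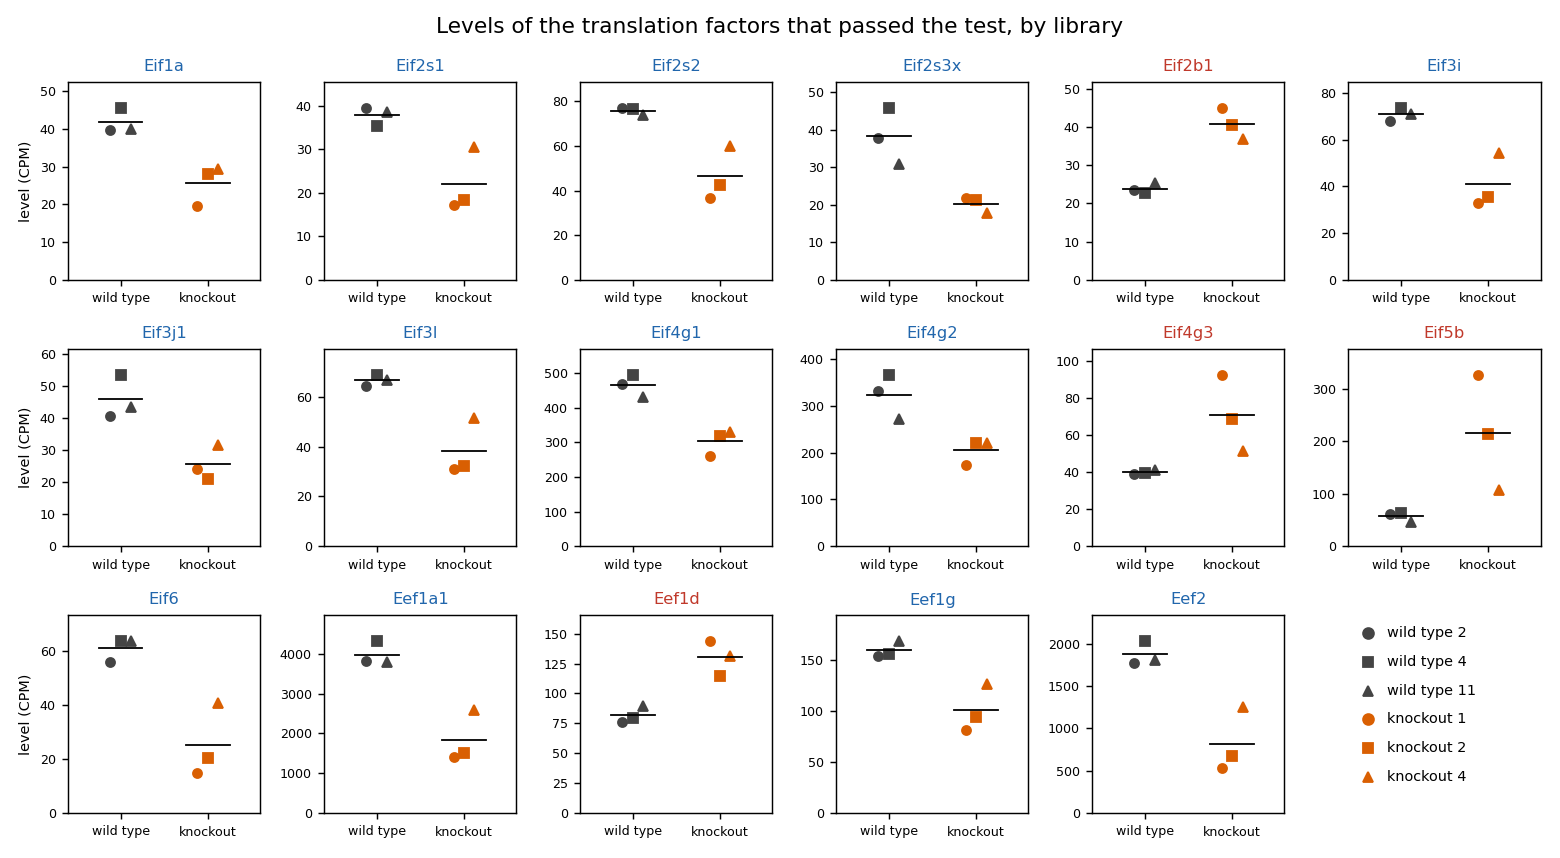
Level in CPM (y axis from 0, a separate scale per gene) of the 17 called members in each of the 6 libraries. Grey marks are wild type, orange marks are knockout, and the line is the group mean. Blue names fell and red names rose. Groups do not overlap in any panel, and knockout 4 (triangle) is nearest to wild type in most.

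eIF5B and eIF6 act at the joining of the ribosomal subunits, and their mRNAs changed in opposite directions. Eif5b, the GTPase that joins the subunits, lies at chr1:37998010-38055579 (plus strand). It was at 61.3, 63.3 and 46.9 CPM in wild type and at 327, 215 and 108 CPM in knockout. The levels rose in all 3 knockout libraries, in the order of the mitochondrial share. The rise was 3.79-fold (1.92 ± 0.34, edgeR adjusted p = 0.00831), and this call alone held in each of the 6 fits that left out 1 library. With knockout 4 alone the estimate was 0.91, and with the mitochondrial share as covariate it was 0.52 (adjusted p = 0.640). Of its exonic bases, 16.8% overlap Rev1, on the other strand, which had 0.29 ± 0.24 (adjusted p = 0.435) and at most 9.07 CPM.

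Eif6, which keeps the large subunit from joining too early, lies at chr2:155819832-155826925 (minus strand). Its levels were 56.0, 63.6 and 63.6 CPM in wild type and 14.9, 20.4 and 40.6 CPM in knockout. Knockout 1 was lowest and knockout 4 was nearest to wild type. It fell 2.41-fold (-1.27 ± 0.31, edgeR adjusted p = 0.0228). The ratio of Eif5b to Eif6 counts, chosen after the values were seen, was 1.09, 0.995 and 0.736 in wild type, against 22.0, 10.5 and 2.65 in knockout. It was thus above 1 in every knockout library and near or below 1 in wild type. Since the groups of both genes lay apart, in opposite directions, this ratio had to separate the genotypes.

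Of 6 tested genes of eIF2 and other factors that carry tRNA, 3 fell and 0 rose, beside 8.29% and 8.76% of all tested genes. The median of the 6 was -0.56. All 3 that fell are eIF2 subunits. Eif2s1, the alpha subunit that stress kinases phosphorylate, was at 39.5, 35.4 and 38.5 CPM in wild type and 17.3, 18.4 and 30.4 CPM in knockout. It fell 1.71-fold (-0.78 ± 0.23, edgeR adjusted p = 0.0405). Eif2s2, the beta subunit, was at 77.0, 76.8 and 73.8 CPM against 36.8, 42.5 and 59.8 CPM. It fell 1.64-fold (-0.71 ± 0.20, adjusted p = 0.0380), with knockout 4 again nearest to wild type. Eif2a and Eif2d, which can bring tRNAs to the ribosome without eIF2, had -0.42 ± 0.19 (adjusted p = 0.154) and -0.37 ± 0.22 (adjusted p = 0.261).

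The gamma subunit has a copy on each sex chromosome. Eif2s3x, at chrX:94188707-94212862 (minus strand), was at 37.9, 45.7 and 30.9 CPM in wild type and 21.7, 21.2 and 17.7 CPM in knockout. It fell 1.89-fold (-0.92 ± 0.19, edgeR adjusted p = 0.0134), and knockout 4 was its lowest library. Eif2s3y, at chrY:1010543-1028847 (plus strand), was counted in all 6 livers, so each came from a mouse with a Y chromosome. Its levels were 49.5, 56.4 and 39.9 CPM in wild type and 47.7, 52.8 and 40.0 CPM in knockout. Its groups overlapped throughout (-0.05 ± 0.19, adjusted p = 0.870). The ratio of Eif2s3x to Eif2s3y counts was 0.764, 0.810 and 0.775 in wild type, against 0.456, 0.401 and 0.444 in knockout. The spread within a genotype was small beside the gap between them (0.783 ± 0.024 against 0.434 ± 0.028, SD, n = 3 each, exact permutation p = 0.1, two-sided). A p of 0.1 is the smallest that 3 against 3 can give, and it was 0.2 after adjustment over 4 paralog pairs. This ratio does not depend on scaling between libraries, and in knockout 4 it was as low as in knockout 1 and 2.

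The Eif2s3x call was lost without wild type 4 and with the mitochondrial share as covariate (-1.13, edgeR adjusted p = 0.452). The estimate was -1.10 with knockout 4 alone, so in neither that fit nor the one with the covariate was it smaller than with all libraries. Of its words, 34.6% are shared with other genes, and one of these, Gm2223, is itself in the table. Gm2223 fell from 1.47, 2.08 and 1.35 CPM to 0.199, 0.322 and 0.241 CPM (-2.63 ± 0.45, edgeR adjusted p = 0.00738). These levels are small beside those of Eif2s3x.

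**Figure D4:**
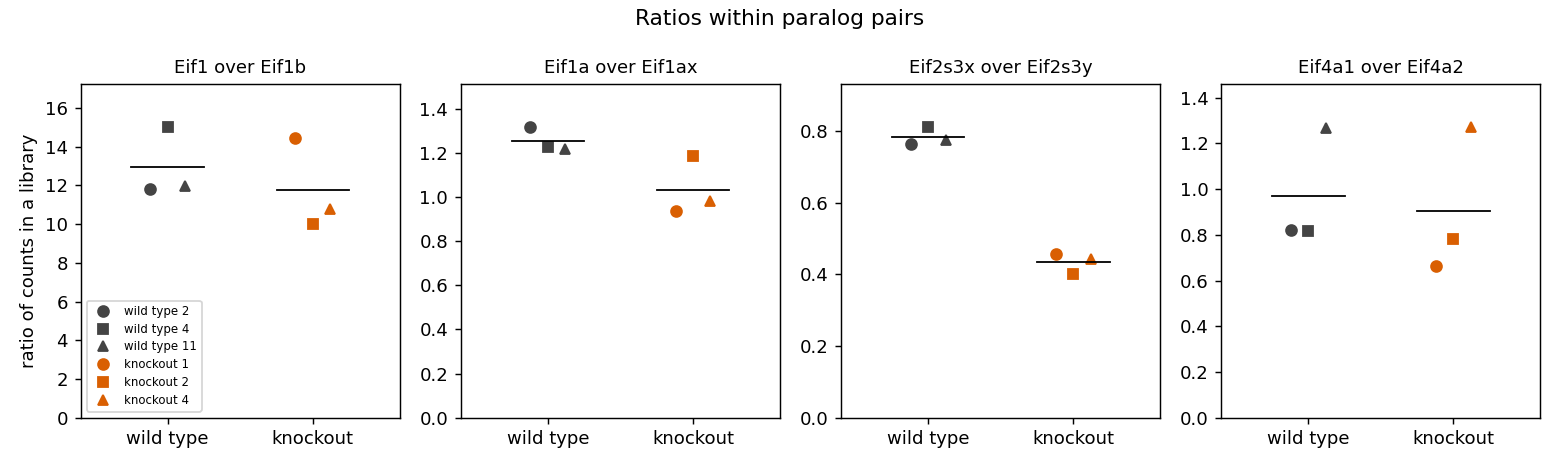
Ratio of counts within 4 paralog pairs (y axis from 0) in each library, with the group mean as a line. Eif2s3x over Eif2s3y is between 0.764 and 0.810 in wild type and between 0.401 and 0.456 in knockout, while Eif1 over Eif1b and Eif4a1 over Eif4a2 overlap between the genotypes.

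eIF2B, which recharges eIF2 with GTP, had 1 of 5 subunits called (20%, beside 17.0% of all tested genes). Eif2b1, the regulatory alpha subunit, was at 23.4, 22.7 and 25.2 CPM in wild type and 44.9, 40.4 and 36.7 CPM in knockout. It rose 1.71-fold (0.77 ± 0.16, edgeR adjusted p = 0.0137). Eif2b5, the catalytic epsilon subunit, was at 26.7, 25.1 and 33.0 CPM against 13.6, 18.5 and 23.9 CPM, without overlap but short of the threshold (-0.60 ± 0.22, adjusted p = 0.0892). The ratio of Eif2b1 to Eif2b5 counts, chosen after the values were seen, was 0.876, 0.902 and 0.764 in wild type, against 3.29, 2.18 and 1.54 in knockout. Both genes had groups that lay apart, in opposite directions, so that ratio had to separate the genotypes. The other 3 subunits, Eif2b2, Eif2b3 and Eif2b4, had estimates of -0.20, -0.01 and 0.15 with overlapping groups.

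Of the 4 kinases of eIF2 alpha, 0 passed in edgeR, DESeq2 or limma-voom, beside 17.0%, 18.4% and 18.1% of all tested genes. Of the kinases, 1, Eif2ak3, had an unadjusted p under 0.05 in edgeR, beside 4526 of 13304 tested genes. Eif2ak1, the heme-regulated kinase and the highest of them in level, was at 41.5, 44.5 and 42.3 CPM in wild type and 32.4, 35.0 and 39.2 CPM in knockout (-0.27 ± 0.16, adjusted p = 0.265). Eif2ak3, the kinase of the endoplasmic reticulum (PERK), was at 23.8, 26.1 and 12.4 CPM against 8.74, 10.9 and 16.7 CPM (-0.78 ± 0.31, adjusted p = 0.105). Wild type 11 lay among the knockout libraries, and without it the call was made (-1.05, adjusted p = 0.0410), as it was without knockout 4 (-1.09, adjusted p = 0.0275). Eif2ak2, which double-stranded RNA activates, had 0.32 ± 0.27 (adjusted p = 0.435). Eif2ak4, which amino acid shortage activates, had 0.02 ± 0.22 (adjusted p = 0.965).

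Genes induced when eIF2 alpha is phosphorylated, the ATF4 programme, had 0 of 16 tested genes higher and 1 lower, with a median of 0.21. The share called was 6.25%, beside 17.0% of all tested genes. The gene that fell was Chac1, which degrades glutathione, from 7.08, 7.47 and 3.81 CPM in wild type to 3.44, 1.88 and 1.56 CPM in knockout (-1.42 ± 0.37, edgeR adjusted p = 0.0281). Atf4 itself was at 77.7, 113 and 110.1 CPM against 162, 144 and 123 CPM, without overlap and short of the threshold (0.51 ± 0.20, adjusted p = 0.103). Ddit3 had 0.06 ± 0.22 (adjusted p = 0.878), with overlapping groups. Of the 16 genes, 6 were higher and 2 lower at an unadjusted p under 0.05 in edgeR. Of all 13304 tested genes, 2272 were higher and 2254 lower at that threshold. DESeq2 called 1 of the 16 higher and 1 lower, and limma-voom 3 higher and 1 lower. In these tests 18.4% and 18.1% of all tested genes were called. ATF4 is controlled largely by translation, which these libraries do not measure.

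eIF3, the scaffold of the small subunit, had 14 tested genes. Of these, 3 fell and 0 rose (21.4% called, beside 17.0% of all tested genes), with a median of -0.33. Eif3i was at 68.1, 73.4 and 70.8 CPM in wild type and 33.0, 35.2 and 54.2 CPM in knockout, and fell 1.73-fold (-0.79 ± 0.21, edgeR adjusted p = 0.0294). Eif3l was at 64.3, 68.8 and 66.6 CPM against 31.2, 32.3 and 51.3 CPM, and fell 1.74-fold (-0.80 ± 0.21, adjusted p = 0.0303). In both genes knockout 1 and 2 lay close together and knockout 4 above them. Eif3j1, a loosely bound subunit, was at 40.6, 53.6 and 43.6 CPM against 24.3, 21.05 and 31.6 CPM, and fell 1.79-fold (-0.84 ± 0.20, adjusted p = 0.0209).

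Eif3j1 needs 2 qualifications. It shares 50.9% of its words with other genes, mostly its near copy Eif3j2, which had 18.1, 7.68 and 4.27 CPM in wild type and 2.85, 0.967 and 5.66 CPM in knockout (-1.67 ± 0.60, edgeR adjusted p = 0.0795). The sum of both genes was 58.7, 61.3 and 47.9 CPM against 27.1, 22.0 and 37.3 CPM, again without overlap. Of its exonic bases, 20.2% overlap Spg11 and another gene, and Spg11 fell too (-1.28 ± 0.26, adjusted p = 0.0121), at 3.38 to 11.4 CPM over all libraries.

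The other eIF3 subunits were short of the threshold in edgeR, in both directions, and DESeq2 called 1 of them, Eif3a, lower. Eif3a, the largest subunit, was at 185, 193 and 135.6 CPM in wild type and 99.7, 98.8 and 135.6 CPM in knockout (-0.62 ± 0.21, edgeR adjusted p = 0.0634), and knockout 4 was level with wild type 11. Eif3k, a peripheral subunit, was at 46.4, 48.2 and 55.1 CPM against 63.8, 68.0 and 68.5 CPM (0.42 ± 0.16, adjusted p = 0.0973). Eif3e had 0.28 ± 0.16 and Eif3m -0.46 ± 0.21, each with groups that did not overlap. Per kilobase of exon, wild-type levels of eIF3 genes ran from 4.21 CPM (Eif3j2) to 77.8 CPM (Eif3h), and Eif3h had 0.05 ± 0.18.

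eIF4F, which binds the cap and unwinds the mRNA, changed in its scaffold genes. Of 11 tested genes of eIF4F and its helicase partners, 1 rose and 2 fell, with a median of -0.35. That is 27.3% called, beside 17.0% of all tested genes. Eif4g1, the main scaffold, at chr16:20668313-20692884 (plus strand), was at 468, 495 and 430.3 CPM in wild type and 260.4, 317 and 329.8 CPM in knockout. It fell 1.53-fold (-0.62 ± 0.18, edgeR adjusted p = 0.0411). Eif4g2, a relative that lacks the site for eIF4E, was at 332, 366 and 273 CPM against 174, 219.5 and 220.5 CPM, and fell 1.58-fold (-0.66 ± 0.19, adjusted p = 0.0403). Eif4g3, a close relative of Eif4g1, was at 39.0, 39.6 and 41.1 CPM against 92.7, 68.7 and 51.5 CPM, and rose 1.78-fold (0.83 ± 0.22, adjusted p = 0.0281).

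The ratio of Eif4g3 to Eif4g1 counts, chosen after the values were seen, was 0.083, 0.080 and 0.096 in wild type, against 0.356, 0.216 and 0.156 in knockout. The ratio was similar across wild-type livers, and all knockout livers lay above it. Groups of both genes lay apart, in opposite directions, so this ratio had to separate the genotypes. The 3 scaffold genes together summed to 839, 901 and 744 CPM in wild type and 527, 606 and 602 CPM in knockout.

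The cap-binding protein and the helicases did not pass. Eif4e was at 32.9, 34.0 and 36.1 CPM in wild type and 21.7, 27.0 and 29.0 CPM in knockout, without overlap (-0.41 ± 0.17, edgeR adjusted p = 0.125). Eif4a1, the main helicase, was at 224, 217 and 239 CPM against 183, 203 and 299.8 CPM (0.01 ± 0.21, adjusted p = 0.973), and it shares 28.4% of its words with other genes. Eif4a2, its paralog, was at 273, 266 and 189 CPM against 276, 260.1 and 236 CPM (0.09 ± 0.19, adjusted p = 0.787). Their ratio was highest in wild type 11 (1.27) and knockout 4 (1.27) and did not separate the genotypes (exact permutation p = 0.6, two-sided, n = 3 each). Eif4a-ps4, a gene that shares words with Eif4a1, had 52.7, 54.6 and 50.2 CPM against 14.0, 15.9 and 42.4 CPM. It was short of the threshold without overlap (-1.12 ± 0.36, edgeR adjusted p = 0.0541). Eif4e1b, a relative of Eif4e known from oocytes, had 0 counts in all libraries, as had Eif2c5, where a floor of 3 counts is 0.139 to 0.199 CPM per library and covers counting error only.

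Genes of proteins that bind eIF4E are the 3 Eif4ebp genes, whose products keep eIF4E from eIF4G until mTOR phosphorylates them, and Eif4enif1, which carries eIF4E into the nucleus. They had 0 of 4 called in edgeR, DESeq2 or limma-voom, beside 17.0%, 18.4% and 18.1% of all tested genes. At an unadjusted p under 0.05 in edgeR there were 0 of 4, beside 4526 of 13304 tested genes. Groups did not overlap for 0 of 4, beside 38.9% of all tested genes. Eif4ebp2, the highest in level, was at 241, 256 and 212 CPM in wild type and 179.9, 229 and 195 CPM in knockout (-0.23 ± 0.18, adjusted p = 0.388). Eif4ebp1 was at 59.6, 59.4 and 66.7 CPM against 51.4, 55.4 and 72.8 CPM (-0.05 ± 0.18, adjusted p = 0.877). Eif4ebp3 was low, at 2.28, 3.63 and 1.58 CPM against 0.993, 0.483 and 2.29 CPM (-0.99 ± 0.53, adjusted p = 0.213). Eif4enif1 had 0.23 ± 0.21 (adjusted p = 0.456). Phosphorylation, the known control of the Eif4ebp proteins, was not measured.

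Factors that select the start codon had 1 of 6 called (16.7%), near the 17.0% of all tested genes. Eif1a, which helps the small subunit scan, was at 39.8, 45.5 and 40.1 CPM in wild type and 19.6, 28.1 and 29.3 CPM in knockout, and fell 1.63-fold (-0.70 ± 0.19, edgeR adjusted p = 0.0333). Its X-linked paralog Eif1ax was at 30.3, 37.2 and 32.9 CPM against 20.9, 23.7 and 29.9 CPM, without overlap and without a call (-0.43 ± 0.19, adjusted p = 0.136). The ratio of Eif1a to Eif1ax was 1.32, 1.23 and 1.22 in wild type, against 0.937, 1.18 and 0.980 in knockout (exact permutation p = 0.1, two-sided, 0.2 adjusted over the 4 pairs, n = 3 each). The genotypes did not overlap, though knockout 2 lay close to wild type 11.

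Eif1, which guards the choice of start codon, was at 222, 231 and 294 CPM in wild type and 317, 285 and 355 CPM in knockout (0.36 ± 0.19, edgeR adjusted p = 0.207). Its paralog Eif1b was at 18.8, 15.4 and 24.5 CPM against 21.9, 28.5 and 33.0 CPM (0.51 ± 0.22, adjusted p = 0.138). Both had overlapping groups, and their ratio did too (exact permutation p = 0.5, two-sided). Eif5, which makes eIF2 hydrolyse GTP, had -0.11 ± 0.20 (adjusted p = 0.734).

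Eif5a, which relieves ribosomes stalled on proline-rich stretches, was at 403, 398 and 433 CPM in wild type and 159.9, 186 and 364 CPM in knockout. Knockout 1 and 2 lay far below wild type and knockout 4 just below it, and the gene did not pass (-0.80 ± 0.28, edgeR adjusted p = 0.0768). It passed without knockout 4 (-1.26, adjusted p = 0.000659), and in DESeq2 and limma-voom with all libraries. Its paralog Eif5a2 had at most 0.596 CPM. eIF5A works only after its lysine is turned into hypusine, in a last step made by Dohh. Dohh rose from 8.17, 6.29 and 11.5 CPM in wild type to 27.9, 28.2 and 20.3 CPM in knockout (1.56 ± 0.25, adjusted p = 0.00597).

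Among 20 tested kinases, phosphatases and modifying enzymes of the factors, Dohh was the only one that rose and Dph1 the only one that fell. That is 10% called, beside 17.0% of all tested genes, and the median was 0.08. Dph1, an enzyme that starts the diphthamide mark on eEF2, was at 7.22, 6.61 and 6.46 CPM in wild type and 2.78, 2.85 and 3.01 CPM in knockout (-1.23 ± 0.23, edgeR adjusted p = 0.00948). Its 3 knockout libraries, unlike those of Eef2, lay at nearly 1 level. The other 18 did not pass, Mtor, Rptor and the S6 kinases Rps6kb1 and Rps6kb2 among them.

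Genes for poly(A) binding, termination and recycling had 5 of 14 tested genes lower and 0 higher, with a median of -0.38. Of all tested genes, 8.29% were lower and 8.76% higher. Gspt1, the release factor eRF3, was at 63.0, 66.9 and 47.6 CPM in wild type and 17.6, 16.7 and 28.0 CPM in knockout (-1.51 ± 0.24, edgeR adjusted p = 0.00578). Etf1, the release factor eRF1 that works with it, fell too (-0.80 ± 0.20, adjusted p = 0.0249). Paip2b, an inhibitor of the poly(A)-binding protein, was at 16.7, 16.4 and 13.8 CPM against 3.97, 5.53 and 6.86 CPM (-1.51 ± 0.23, adjusted p = 0.00556). Pdcd4, an inhibitor of the helicase eIF4A, was at 77.6, 72.8 and 63.6 CPM against 26.0, 27.1 and 47.5 CPM (-1.09 ± 0.24, adjusted p = 0.0162). The fifth was the helicase gene Ddx3x (-0.83 ± 0.24, adjusted p = 0.0419). So both activators and inhibitors of translation were among the genes that fell. Without knockout 4, 9 of the 14 were lower, beside 2161 of all 13776 genes tested in that fit.

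The translation factors of mitochondria are nuclear genes for a separate machinery. Of 10 tested, 3 were lower and 0 higher, beside 8.29% and 8.76% of all tested genes. The median of the 10 was -0.35. Tufm, the mitochondrial counterpart of eEF1A, was at 88.9, 86.1 and 91.2 CPM in wild type and 15.2, 17.0 and 60.2 CPM in knockout (-1.53 ± 0.44, edgeR adjusted p = 0.0396). Gfm1, the counterpart of eEF2, was at 76.0, 76.0 and 70.5 CPM against 14.7, 19.0 and 41.9 CPM (-1.56 ± 0.33, adjusted p = 0.0137). Mrrf, a recycling factor, was at 19.8, 18.3 and 19.2 CPM against 9.40, 10.6 and 15.2 CPM (-0.70 ± 0.21, adjusted p = 0.0444). In all 3, knockout 1 and 2 were lowest and knockout 4 stood between them and wild type, as for Eef1a1 and Eef2.

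Properties of the genes are given as a description. Over the 64 tested members, which share the 6 libraries, the log2 fold change had Pearson r of 0.153 and Spearman rho of 0.0576 with the log2 of transcript length, 0.0567 and 0.0899 with GC percent, and -0.175 and -0.159 with the log2 of the wild-type level. The median transcript of the 4 members that rose was 5327 bases long, that of the 13 that fell 3089 and that of the 47 that did not pass 2556. Over all tested genes the order was different, with 2255 bases for genes that rose, 3287 for genes that fell and 3239 for the others. Leaving out the 9 members that share 25% or more of their words with other genes left 55, of which 4 were higher and 9 lower. The share called was then 23.6%, beside 17.0% of all tested genes.

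The number of calls changed with the libraries left out and with some choices in the fit. With the library totals alone in place of TMM scaling, the split changed to 1 higher and 16 lower, beside 5.19% higher and 11.8% lower of all tested genes (17.0% in all). The median of all tested genes was then -0.16 and that of the members -0.47, so the members stayed below all genes. Other size factors, filters and tests called 17 to 20 members: 17 with RLE size factors (17.1% of all genes), 18 with mitochondrial genes left out of the scaling (17.2%), 17 when at least 3 libraries had to reach 1 CPM (17.9%), 20 with DESeq2 (18.4%), 19 with limma-voom (18.1%) and 17 with length and GC trends removed (17.5%). Of the 17 calls in the main fit, 14 remained with library totals and 15 with length and GC trends removed. Eef1d, Eif2b1 and Eif4g3 lost theirs with library totals, and Eif2s1 and Eif4g2 with length and GC trends removed. With no filter 25 of 67 members were called (13.9%), and with a block for the replicate number 11 (12.7%). The block leaves wild type 11 and knockout 1 each alone, so its genotype estimate rests on libraries 2 and 4 of each genotype. Leaving out wild type 2, 4 or 11 left 4, 1 and 10 members called, beside 6.03%, 4.57% and 12.3% of all genes. Leaving out knockout 1 or 2 left 3 and 4, beside 5.90% and 7.20%. Such fits also hold fewer mice, and that cannot be told apart from which library was left out. Without wild type 4 every called member but Eif5b lost its call. None of the 17 changed direction in any of the 17 alternative fits per gene. Their groups do not overlap, so fits that leave out libraries could hardly reverse them, and this says little about the calls.

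**Figure D5:**
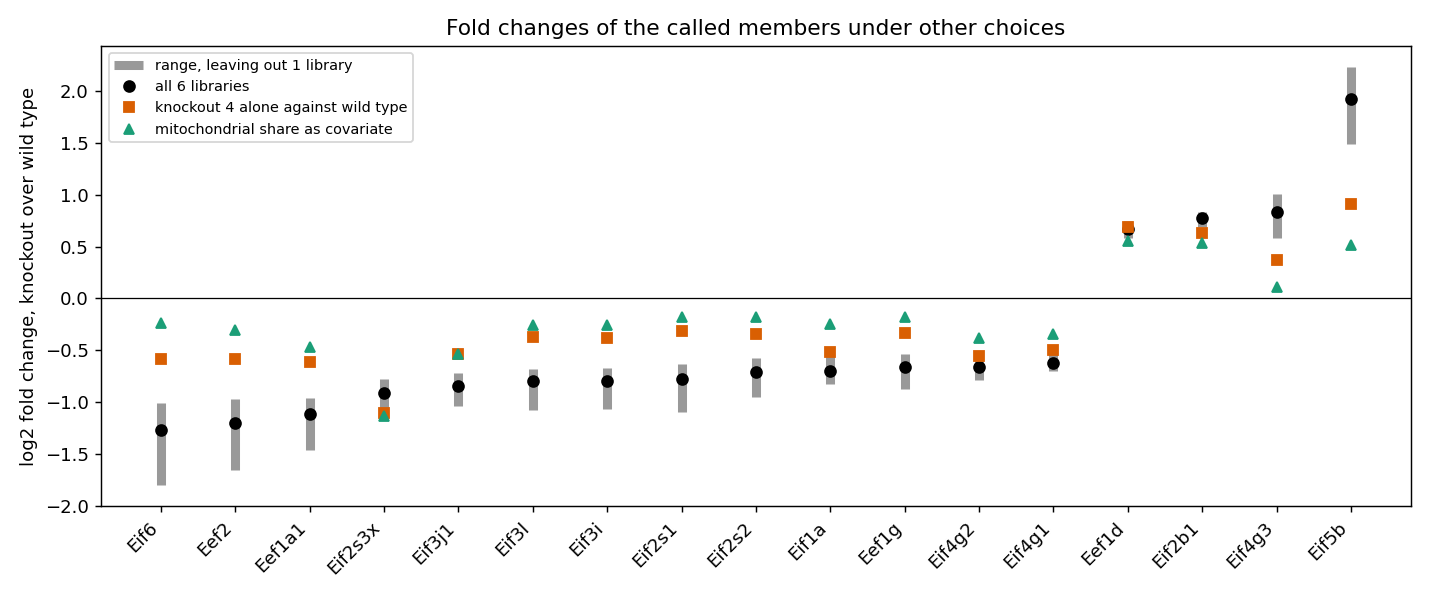
Log2 fold change (y axis) of the 17 called members with all 6 libraries (black), the range over fits that leave out 1 library (grey bar), knockout 4 alone (orange) and the mitochondrial share as covariate (green). Estimates keep their sign throughout, which groups without overlap make nearly certain in the fits on fewer libraries. Eif2s3x and Eef1d keep their size with knockout 4 alone, while most of the others are nearer to 0.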

How the data were processed

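Liver RNA of 3 knockout and 3 wild-type mice was isolated with an RNeasy kit (Qiagen), and libraries came from total RNA by a SMARTer mRNA kit, per the labels' protocols. The deposited file holds unnormalized whole-number counts by gene, in 1 column per mouse. Reads were placed on mm10, per the submitters' processing notes. How reads were aligned, counted and assigned, with which annotation and strand setting, was not given in the sources used here. Counting can drop or divide reads that near-identical copies share. Genes were placed by identifier on GENCODE M21, of the same build, which held 54165 of the 54232 identifiers. Shared words were 50-base stretches of a gene's transcripts that also occur in transcripts of other genes.

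The main test was edgeR 4.0.16 in R 4.3.3: TMM scaling, filterByExpr (13304 genes kept), the quasi-likelihood F test, two-sided, with Benjamini-Hochberg adjustment over all tested genes and a threshold of 0.05, without covariates. The SE is the size of the log2 fold change over the root of its F statistic. Log2 deviations of single libraries used a prior count of 2. Alternatives used DESeq2 1.42.0, limma 3.58.1 and other scalings, filters and libraries. Paralog ratios were tested by exact permutation in scipy 1.17.1.

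The members, the lists and the rule for named genes were chosen with earlier results of these data known. The rule took Rtn4, every called member, the highest member of each complex, core factors and paralog pairs, and up to 3 called genes of each list of other genes. Eef2kmt, Eef1b2, Eif3k, Eif3e, Eif3m, Eef1e1, Etf1, Ddx3x, Atf4 and Ddit3 were named after their values were seen. Between libraries of 1 genotype, the chi-square per degree of freedom of the counts was 21.0 to 170.6, above sampling noise, so no pair was treated as a repeat deposit of 1 library. The labels call the samples livers of mice, so p-values reflect only how these samples spread.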

Additional observations from a re-analysis of the deposited data

How the results depend on the processing

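With all 6 libraries, 4 members were higher and 13 lower (26.6% called, beside 17.0% of all tested genes). Library totals without TMM gave 1 higher, beside 5.19% of all tested genes. No low-count filter gave 20 lower, beside 1832 of 23915 tested genes. The mitochondrial share as a covariate gave 0 higher and 0 lower, beside 0% of all tested genes called. The fit with knockout 4 alone assumes that this lone library varies like wild type, and it called few genes of any kind. Leaving out 1 library gave 1 to 5 higher and 0 to 28 lower, the lowest without wild type 4 and the highest without knockout 4. The share of all tested genes called was likewise lowest without wild type 4 (4.57%) and highest without knockout 4 (29.4%). With the replicate block 4 were higher and 7 lower (17.2% called, beside 12.7% of all tested genes), and 7 of the 17 calls remained. In that fit wild type 11 and knockout 1 are each alone in a block. The genotype estimate thus rests on libraries 2 and 4 of each genotype. The numbers 2 and 4 occur in both genotypes, and deviations of libraries with the same number correlated at -0.0597 and 0.0670. Those of libraries with different numbers correlated at -0.112 to 0.08. The labels do not say what a number marks, and these values cannot tell whether more than a number is shared. No called member reversed in any alternative, which groups without overlap made nearly certain in the fits that left out libraries. With 3 mice of each genotype, and with the mitochondrial share and the genotype separating the libraries alike, the fits cannot tell these apart. Levels of members that share words with other genes rest on a counting step that is not given in the sources used here, and at 17568223 to 20902369 counts Eef1a2, Eef1akmt3 and Eif5a2 were too low to test.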
